A study of Canis lupus familiaris with 34 samples.

Results

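Interferon-stimulated genes were described in osteosarcoma of the dog, a cancer of bone. The genes were ISG15, USP18, MX1, MX2, OAS1, IFI44, IFI44L, RSAD2 and IRF7, chosen by symbol. They were 9 of 15115 genes with a probe set of a single symbol, and 17 of 43035 probe sets carried their names. Of the 9, 7 passed the filter on dim probe sets, among 7849 genes tested. IRF7 and RSAD2 did not pass and are given as levels.

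Transcripts were measured on 34 Affymetrix Canine_2 arrays from 31 dogs. Lines derived from metastases took 3 arrays from 3 dogs labelled Rottweiler or Rhodesian Ridgeback, with age at diagnosis 2.39 to 6.31. Lines derived from primary tumours took 25 arrays from 24 dogs, most often labelled Rottweiler (10 arrays) or Golden Retriever (8 arrays) and otherwise Saint Bernard, German Shepherd or German Shephard, Great Pyrenees, Mastiff, Alaskan Malamute or unknown (1 array each), with age 2 to 11.19 on the 23 arrays that have one. Snap-frozen primary tumour tissue took 6 arrays from 6 dogs labelled Golden Retriever, Great Pyrenees, Belgian tervuren or Borzoi, with age 2.67 to 11.91. The unit of age is not stated. Dogs of the primary lines had SOC, SOC with an added note, AMP, PALL or ABX as treatment label where 1 was given, and the labels do not say what these stand for. No label names an interferon, a virus or another agent given to the cultures, and each line is 1 culture of 1 tumour. Titles carried 1 of 3 prefixes, called here title prefix 1, 2 and 3: metastatic lines all had prefix 2, primary line arrays were split as 4, 19 and 2, and all tissues had prefix 3. Dog 22 gave primary lines 19 and 22 and tissue 5, and dog 23 gave primary line 20 and tissue 6. The line arrays of dog 22 were averaged and are called line 19, so that 24 primary lines were compared.

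Interferons are secreted proteins that cells release when they sense foreign nucleic acid. They bind receptors on the same and neighbouring cells and, through JAK kinases and STAT factors, switch on a shared set of antiviral genes. The members play separate roles in that set: ISG15 is a ubiquitin-like modifier and USP18 the protease that removes it and dampens receptor signalling, MX1 and MX2 are dynamin-like GTPases, OAS1 makes oligoadenylates that activate an RNA-cutting enzyme, RSAD2 (viperin) is an antiviral radical-SAM enzyme, and IRF7 is a transcription factor that amplifies interferon production. IFI44 and IFI44L are a related pair of interferon-induced proteins whose function is less settled. The sequences of these genes were not used here.

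All levels below are log2 of the deposited GCRMA intensity, and differences are differences of these log2 levels unless a fold is given. A level over log2 5, the level the filter uses, is called on. Probe sets differ in how brightly they bind, so levels are compared between samples for 1 gene and never between genes. In bulk samples, fewer cells of a type and less RNA per cell cannot be told apart. Column medians were 8.11 to 8.40 linear units in metastatic lines, 8.11 to 8.54 in primary lines and 8.31 to 8.71 in tissues. The actin 3′ minus 5′ difference, which grows as RNA degrades, had medians of 4.86 in primary lines and 6.25 in tissues, while that of GAPDH had medians of 3.04 in primary lines and 3.14 in tissues. Metastatic line 1 had the largest GAPDH difference of all arrays, 5.92, and primary line 7 came next at 4.17. The actin difference of primary line 7 was 4.87, close to the primary line median. Primary line 4 stood apart from the other primary lines, with a median correlation of 0.802 to them where the median over all pairs was 0.89. Its summed linear level of 10 endothelial markers was 32596.7, where the median of primary lines was 127.1, and its osteoblast marker sum was the lowest of the primary lines at 6090.9, where their median was 37647.6. Of the endothelial markers 5 were on in line 4: PECAM1 and EMCN, each at 13.88 and most of the sum, KDR at 10.81, CLDN5 at 8.42 and ERG at 7.96. VWF, TIE1, ESAM, TEK and CDH5 were off, at 3.02, 2.31, 2.33, 3.71 and 3.88. ERG was on in 18 of the primary lines. No 2 arrays held identical values.

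A few primary lines carried the interferon-stimulated genes far above the level of the others. Of 24 primary lines, 17 had no member that lay 2 log2 units or more over its primary line median. Line 12 had 8 of the 9 members raised in this way, every member but RSAD2. Line 6 had 7, line 7 had 5, line 25 had 3, lines 4 and 23 had 2 each and line 21 had 1. The order of lines by the mean of the 7 standardised members was led by lines 12, 6, 25 and 7, at 3.21, 2.06, 0.93 and 0.91. No test was made between these lines and the rest, since the lines were ordered by the same values.

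**Figure D1:**
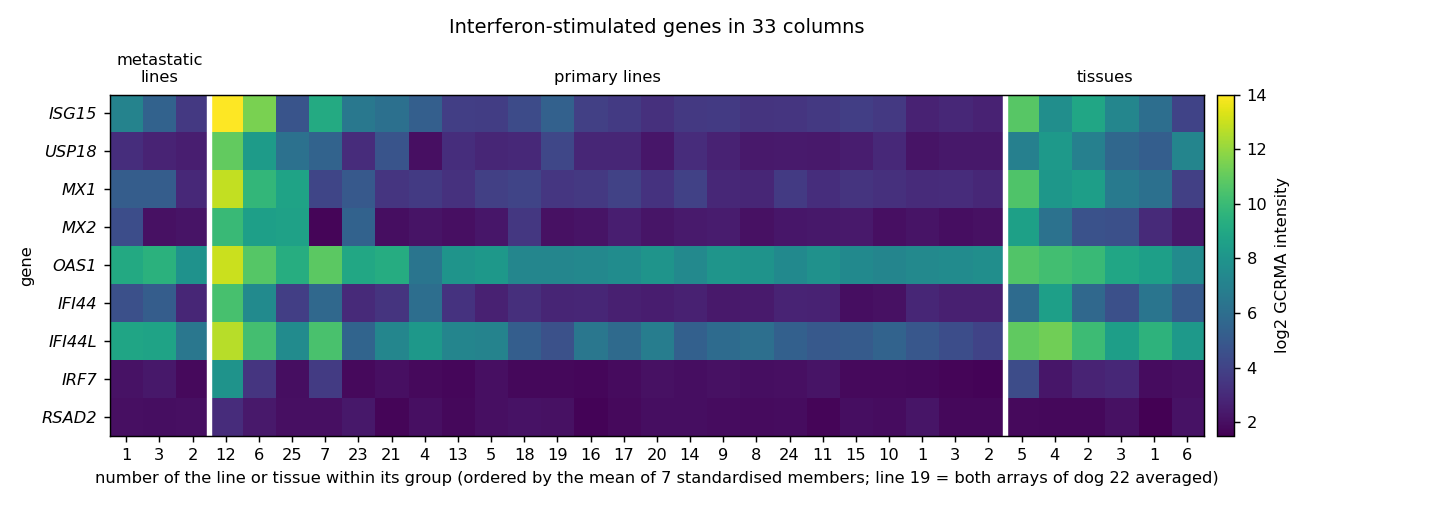
Log2 GCRMA intensity (colour) of the 9 members (rows) in 3 metastatic lines, 24 primary lines and 6 tissues (columns), ordered within each group by the mean of the 7 standardised members. Line 12 is bright in every member but RSAD2, and tissue 6 is the dimmest tissue in ISG15, MX1, MX2 and OAS1.

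ISG15 was on in 7 of 24 primary lines and in 5 of 6 tissues. Its level was 2.67 at the lowest, 3.79 at the median and 13.99 at the highest in primary lines, and 4.02, 7.45 and 10.75 in tissues. The highest primary lines were line 12 at 13.99, line 6 at 11.46 and line 7 at 9.15. Lines 12 and 6 lay above every tissue, and 9 of 24 primary lines lay above the lowest tissue, so the groups overlapped widely. All 6 tissues lay above the primary line median. With the other ISG15 probe set, 3 of 24 primary lines and 2 of 6 tissues were on, at a tissue median of 3.67. These counts thus belong to the probe set used.

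USP18, the partner protease of ISG15, was on in 4 of 24 primary lines and in all 6 tissues. It reached 2.03 at the lowest, 2.85 at the median and 11.003 at the highest in primary lines, and 5.21, 6.94 and 8.25 in tissues. Only lines 12, 6, 25 and 7, at 11.003, 8.36, 6.15 and 5.46, reached the range of the tissues. ISG15 and USP18 followed each other across the 24 primary lines (r = 0.921, rho = 0.764) and, without line 12, at r = 0.847. Line 4 was an exception, with ISG15 at 5.26 and USP18 at 2.03, the lowest of all primary lines.

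MX1 was on in 3 of 24 primary lines and in 5 of 6 tissues. Its level was 2.86, 3.53 and 12.87 at the lowest, median and highest primary line, and 3.85, 7.36 and 10.55 in tissues. The 3 lines were line 12 at 12.87, line 6 at 9.79 and line 25 at 8.75. Line 7 had only 4.11, although its ISG15 was the third highest of the primary lines.

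MX2, the neighbour of MX1 in the UU_Cfam_GSD_1.0 gene table with no protein-coding gene between them, was on in 4 of 24 primary lines and 2 of 6 tissues. It lay at 1.65, 2.22 and 9.97 at the lowest, median and highest primary line, and at 2.33, 4.59 and 8.62 in tissues. The high lines were lines 12, 25, 6 and 23, at 9.97, 8.66, 8.57 and 5.46, and line 7 was the lowest of all at 1.65. MX1 and MX2 had the highest r of any pair of members over the primary lines (r = 0.962, rho = 0.588), while by rho ISG15 and USP18 came first (rho = 0.764). The name of each probe set ends in s_at, which the maker gives to probes that match more than 1 transcript, and cross-binding between these paralogs was not tested.

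OAS1 was on in all 24 primary lines and all 6 tissues, so its lines differed in height and not in being on. Its level was 6.35, 7.75 and 12.98 at the lowest, median and highest primary line, and 7.53, 9.45 and 10.61 in tissues. Lines 12, 7 and 6, at 12.98, 10.87 and 10.69, lay above every tissue. Line 4 was the lowest primary line at 6.35. OAS1 had 5 probe sets, and the choice mattered for this count. With another of them, 6 of 24 primary lines were on, at a median of 4.15, and 1 stayed between 1.16 and 1.93 on every array.

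IFI44 was on in 4 of 24 primary lines and 5 of 6 tissues. Its level was 1.97, 2.76 and 10.37 at the lowest, median and highest primary line, and 4.57, 5.79 and 8.55 in tissues. The high lines were line 12 at 10.37, line 6 at 7.49, line 4 at 5.99 and line 7 at 5.71. No other primary line reached the lowest tissue. With the other IFI44 probe set, 3 of 24 primary lines and only 1 of 6 tissues were on, at a tissue median of 4.08. The count of on tissues thus belongs to the probe set used.

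IFI44L, the neighbour of IFI44 in the same table, was on in 19 of 24 primary lines and in all 6 tissues. Its level was 4.01, 5.86 and 12.65 at the lowest, median and highest primary line, and 8.23, 9.81 and 11.27 in tissues. Lines 12, 7 and 6, at 12.65, 10.43 and 10.28, were the only primary lines above the lowest tissue, and line 4 came next at 8.18. With the 2 other IFI44L probe sets, 6 and 4 of 24 primary lines were on, so its count of on lines belongs to the probe set used.

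IRF7 was on in 1 of 24 primary lines. Line 12 had 7.93, where lines 7 and 6 had 3.69 and 3.43 and the median primary line 1.89. Tissues ran from 1.90 to 4.42, with a median of 2.52, and tissue 5 was the highest. RSAD2 was on in no array. It lay between 1.61 and 3.10 in primary lines, highest in line 12, and between 1.504 and 2.11 in tissues, so this probe set could not separate samples at these levels.

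**Figure D2:**
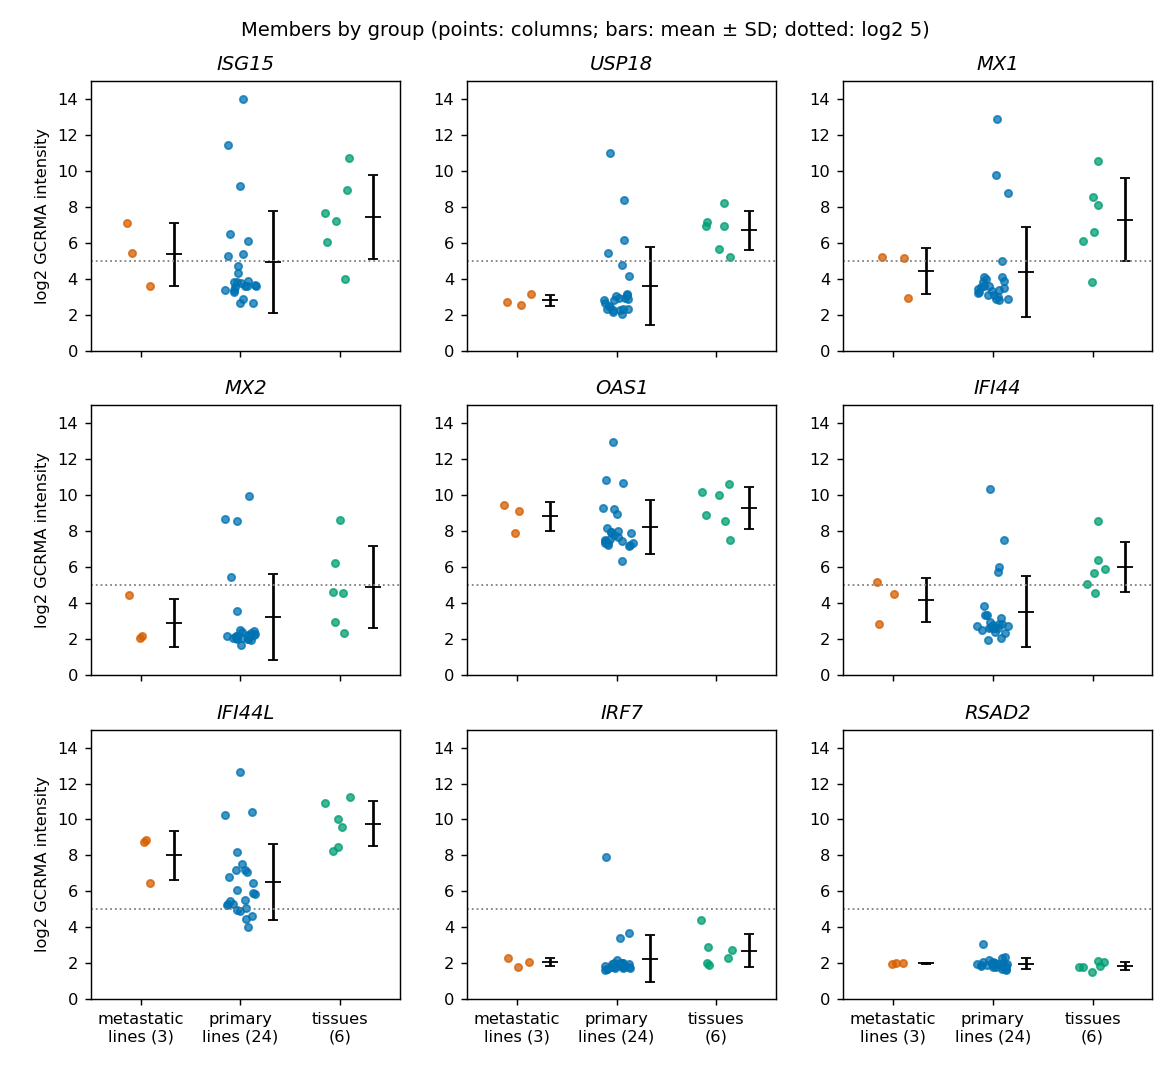
Log2 GCRMA intensity of each member in metastatic lines (3), primary lines (24) and tissues (6). Points are samples, the bar beside them is the mean ± SD, and the dotted line marks log2 5. Primary lines form a low crowd with a few high points for ISG15, USP18, MX1, MX2 and IFI44, while OAS1 is over log2 5 in every sample.

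The members did not rise as 1 block. Lines 12 and 6 raised all 7 tested members. Line 7 raised ISG15, OAS1, IFI44, IFI44L and USP18, while MX1 and MX2 stayed at 4.11 and 1.65. It was also the primary line with the largest GAPDH 3′ minus 5′ difference, and the part of RNA quality was not tested. Line 25 shared the raised USP18 with line 7, but had MX1 and MX2 raised and ISG15 at 4.72. Line 4 raised IFI44 and IFI44L alone, line 23 ISG15 and MX2, and line 21 ISG15 alone.

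Over the 21 pairs of the 7 tested members and the 24 primary lines, r ran between 0.618 and 0.962 with a median of 0.836. Without line 12 the median r was 0.70 and the lowest pair was 0.389. Within the 19 columns of title prefix 2 the median r was 0.899. Ranks were less alike, with a median rho of 0.535 over the 24 lines. These values describe arrays that share 1 platform and 1 normalization.

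**Figure D3:**
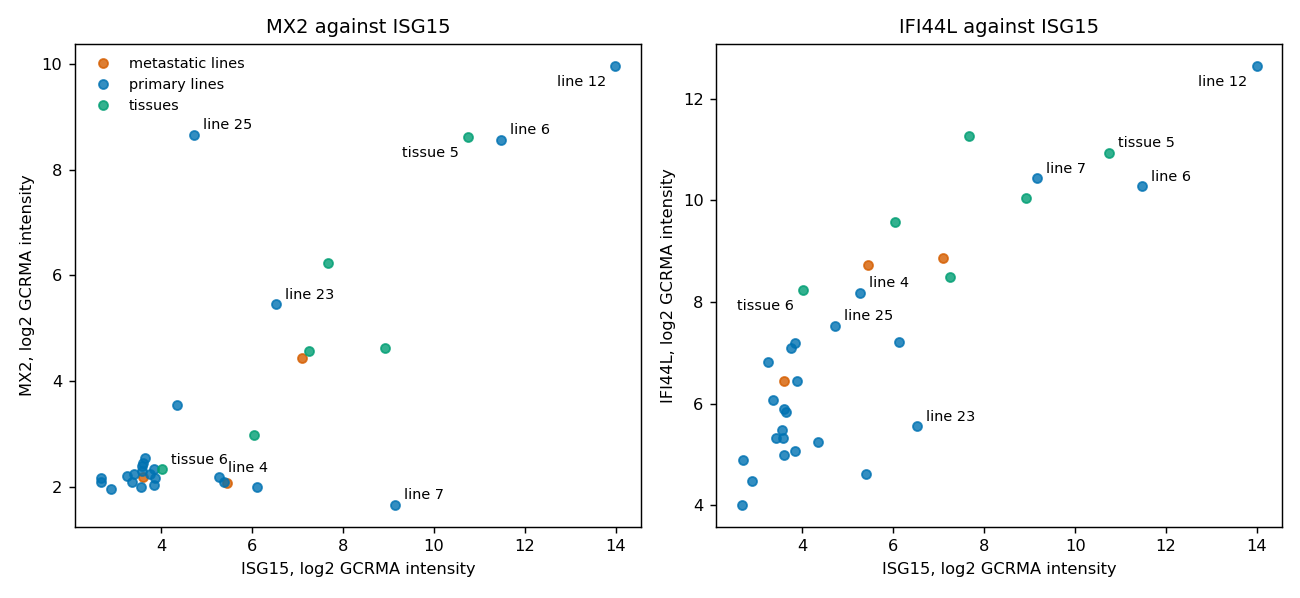
MX2 against ISG15 (left) and IFI44L against ISG15 (right), both axes in log2 GCRMA intensity, 1 point a sample. Line 25 has high MX2 at 8.66 with ISG15 at 4.72, and line 7 has ISG15 at 9.15 with the lowest MX2 at 1.65.

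The genes outside the members whose levels followed them most closely over the 24 primary lines were named by their r with the mean of the standardised members, out of 7842 genes with a median r of 0.058. They were LIN37 (0.923), a subunit of the DREAM cell cycle repressor complex, the solute carrier SLC35F1 (0.907), the immunoproteasome subunit PSMB8 (0.868), PARP14 (0.861), EIF2AK2 (0.855), the RNA-activated kinase PKR, TMEM147 (0.847), EEPD1 (0.845), PARP9 (0.839), NDUFB9 (0.837), a subunit of respiratory complex I, and HERC5 (0.828), a ligase for ISG15. Of these 10, 5 stand in the lists of interferon genes used below, namely PSMB8, PARP14, EIF2AK2, PARP9 and HERC5. Without line 12, r was 0.839 for LIN37, 0.785 for SLC35F1, 0.802 for TMEM147 and 0.798 for HERC5, and 0.612 to 0.719 for the other 6. By rank the likeness was weaker for all 10, with rho 0.84 for LIN37 and 0.391 for PSMB8, the highest and the lowest of them. LIN37 and TMEM147 lie near each other in the gene table, with 12 protein-coding genes between them. HERC5 was 9.02, 7.84, 7.33 and 8.57 in lines 12, 6, 7 and 25, where the median primary line was 3.27. LIN37 moved far less, at 6.84 in line 12, 5.96 in line 6 and a median of 4.98. SLC35F1 was at most 5.44 in primary lines, in line 12, with 4.43 in line 6, 2.39 in line 7, 2.76 in line 25 and a median of 2.30. Its r thus rests largely on levels under log2 5, and its rho was 0.507. Its tissue median was 5.37. EIF2AK2 reached 8.13 and 6.95 in lines 12 and 6 and 4.17 in line 25, close to its primary line median of 4.29.

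Lines against tissues is the comparison that the series' design text names. IFI44L, USP18, MX1 and IFI44 fell in primary lines, and ISG15, MX2 and OAS1 did not pass the test. So 4 of the 7 tested members, out of 9 in all, were lower and 0 were higher, where 9.06% of all genes tested were called lower, 5.57% higher and 14.6% were called in either direction. Calls needed an adjusted p under 0.05 in limma and a change of at least 2-fold. The median difference over all genes tested was -0.05.

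IFI44L averaged 6.52 ± 2.10 in primary lines and 9.76 ± 1.25 in tissues (SD, n = 24 and 6), a difference of -3.24 (SE 0.85, 9.42-fold lower, limma adjusted p = 0.0058). USP18 averaged 3.62 ± 2.17 in primary lines and 6.69 ± 1.10 in tissues, a difference of -3.07 (SE 0.86, limma adjusted p = 0.0093). Of the 24 primary lines, 3 lay above the lowest tissue for IFI44L and 4 for USP18. MX1 averaged 4.38 ± 2.48 in primary lines and 7.29 ± 2.30 in tissues, a difference of -2.91 (SE 1.05, limma adjusted p = 0.042). IFI44 averaged 3.52 ± 1.97 in primary lines and 6.02 ± 1.39 in tissues, a difference of -2.50 (SE 0.81, limma adjusted p = 0.024). Primary line medians of USP18, MX1 and IFI44 lay below log2 4, and with values under log2 4 set to 4 their differences were -2.01, -2.46 and -1.46. The MX1 call is a narrow one. It was lost without any 1 of tissues 2, 3, 4 and 5 (adjusted p up to 0.155), in 13 of the 24 fits that left out 1 primary line (adjusted p up to 0.053), without the filter (adjusted p = 0.052), with that floor (adjusted p = 0.063), in both title prefix fits, where the difference was -3.33, and in females alone. The IFI44 call was lost without tissue 1 or tissue 4 (adjusted p up to 0.099), with that floor (adjusted p = 0.096), in both title prefix fits, where the difference was -3.70, and in females alone.

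ISG15 averaged 4.94 ± 2.82 in primary lines and 7.44 ± 2.32 in tissues, a difference of -2.50 with a 95% interval of -4.89 to -0.11 (limma adjusted p = 0.124). Without line 12, the highest line for ISG15, the difference was -2.89 and passed the test (limma adjusted p = 0.023). Leaving out the highest line lowers the primary line mean by construction, and this fit was chosen after seeing the data. It therefore gives no added support. In the other 23 fits that left out 1 primary line, ISG15 was not called (limma adjusted p up to 0.147). MX2 averaged 3.22 ± 2.39 in primary lines and 4.89 ± 2.28 in tissues, a difference of -1.67 with an interval of -3.74 to 0.40 (limma adjusted p = 0.246). OAS1 averaged 8.23 ± 1.48 in primary lines and 9.30 ± 1.17 in tissues, a difference of -1.07 with an interval of -2.32 to 0.18 (limma adjusted p = 0.218). With array weights, which count unusual arrays for less, all 7 tested members were called lower. Without the filter, IRF7 differed by -0.45 (limma adjusted p = 0.583) and RSAD2 by 0.15 (limma adjusted p = 0.443).

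**Figure D4:**
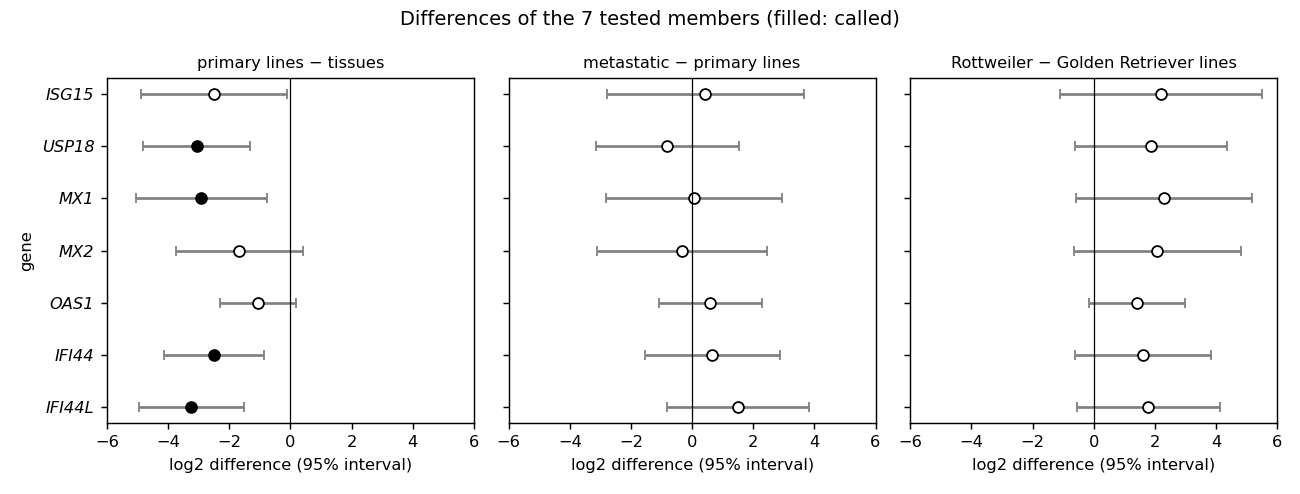
Log2 differences of the 7 tested members with their 95% intervals in primary lines minus tissues, metastatic lines minus primary lines, and Rottweiler minus Golden Retriever primary lines. Filled points passed the test, which only USP18, MX1, IFI44 and IFI44L did, all in primary lines minus tissues.

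Title prefix moved with these calls, since every tissue had prefix 3 and only lines 22 and 23 shared it. With prefix as a covariate and the line arrays of dog 22, which have different prefixes, kept apart, IFI44L was the only member called (-5.47, limma adjusted p = 0.021), and USP18 differed by -3.73 (limma adjusted p = 0.128). Keeping these arrays apart without the covariate left 4 members called. Within title prefix 3 alone, IFI44L and USP18 were called, USP18 by -3.73 (limma adjusted p = 0.035). Both estimates rest on lines 22 and 23. Sex moved with the groups too, with 5 of 6 tissues and 11 of 24 sexed primary line arrays from females. In females alone no member passed the test, while IFI44L differed by -2.96 (limma adjusted p = 0.093) and USP18 by -2.82 (limma adjusted p = 0.135).

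The tissues also differed among themselves, with an SD for MX1 of 2.48 in primary lines and 2.30 in tissues. By the mean of the standardised members, tissue 5 was the highest at 1.89, followed by tissue 4 at 1.72, tissue 2 at 1.31, tissue 3 at 0.73, tissue 1 at 0.69 and tissue 6 at 0.26. Tissue 5 was the highest for ISG15, MX1, MX2 and OAS1, and tissue 4 for USP18, IFI44 and IFI44L. Tissue 6 had ISG15 at 4.02, MX1 at 3.85 and MX2 at 2.33, all the lowest of the tissues, with USP18 at 7.17, the second highest.

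Some markers of other cell types moved with the tissues. Of 15 monocyte and macrophage markers, 14 were over log2 5 in at least 1 tissue and 5 in at least 1 primary line, and their summed linear level was 74.3 to 14459.7 in primary lines, with line 4 at the top, and 5592.0 to 26489.2 in tissues. No marker reached 0 on this scale. The median sum was 82.4 in primary lines and 12810.3 in tissues. The part of these cells in the tissue level of the members was not tested. Tissue 5 had the highest sum, 26489.2, and tissue 4, second for the members, the lowest, 5592.0. The sum of 11 T and NK cell markers was 49.9 to 65.7 in primary lines and 70.7 to 1047.5 in tissues, and tissue 5 alone reached 1047.5, with 6 of the markers over log2 5. Endothelial sums had medians of 127.1 in primary lines and 3310.0 in tissues, and neutrophil sums 96.6 in primary lines and 461.4 in tissues. Of the neutrophil markers, S100A8 was over log2 5 in 14 primary lines and 5 tissues, S100A9 in 0 and 4, and MPO in 2 and 1. CSF3R and ELANE were over it in no primary line and no tissue. The dendritic cell median was 1539.3 in primary lines and 2237.1 in tissues. That of B and plasma cells was 708.9 in primary lines and 791.8 in tissues, and that of the 1 erythroid marker 6.0 and 5.8. JCHAIN was the only B and plasma cell marker over log2 5 in any primary line or tissue. Of the dendritic cell markers, TCF4 alone was over log2 5 in all 24 primary lines and all 6 tissues. These 2 sums thus rest largely on 1 gene each. Lines 12, 6, 7 and 25 had macrophage sums of 76.1, 74.3, 92.5 and 79.3 with 0 of 15 markers over log2 5. Line 4, with IFI44 and IFI44L raised, had 4 macrophage markers over log2 5: LAPTM5 at 13.74, CD68 at 8.70, CD14 at 7.99 and MSR1 at 6.43. All other macrophage markers were at 3.05 or less in line 4, among them CD163 at 2.58 and C1QA at 2.37.

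For the pair of dogs sampled as line and as tissue, the values could be set side by side. In dog 22 the line lay below tissue 5 in all 7 tested members, by -5.36 for ISG15, -7.07 for MX1, -6.53 for MX2, -3.38 for OAS1, -3.11 for IFI44, -6.33 for IFI44L and -2.79 for USP18. In dog 23, line 20 lay below tissue 6 by -4.90 for USP18, -2.55 for IFI44 and -1.41 for IFI44L. ISG15, MX1 and MX2 differed there by -0.77, -0.51 and -0.13, and OAS1 by 0.44. The line arrays of dog 22, which differ in title prefix, were also far apart: line 19 minus line 22 was 2.96 for ISG15, 3.19 for IFI44L, 2.64 for USP18, 2.17 for IFI44, 1.19 for OAS1, 1.10 for MX1 and 0.93 for MX2. Taken as single arrays, ISG15, USP18 and IFI44L were on in line 19, at 6.868, 5.475 and 6.209. They were off in line 22, at 3.91, 2.836 and 3.021. Outside this comparison, line 19 is the average of both arrays.

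Other genes of the pathway were counted in lists ordered by role, again in primary lines minus tissues, where 9.06% of all genes tested were lower and 5.57% higher. STING1 and DDX60 were over log2 5 in 1 primary line each and in no metastatic line, and passed the filter through the tissues. Their place in these counts therefore gives no support to a list. PSMB8 was over log2 5 in 2 primary lines and in metastatic lines 1 and 3, at 6.81 and 7.20 in the latter. Among interferon genes themselves, IFNB1, IFNK, IFNG and IFNL1 had a probe set, and none passed the filter. In primary lines IFNB1 reached 2.16, IFNK 2.57, IFNG 2.41 and IFNL1 2.70, so none of these 4 genes was on in any primary line. The receptor list had 4 tested genes, 0 called and a median difference of -0.44. IFNAR1, a chain of the type I receptor, averaged 4.17 ± 0.51 in primary lines and 4.79 ± 1.37 in tissues (limma adjusted p = 0.168). Of 9 tested signalling genes 0 were called, with a median difference of -0.21. IRF9, the DNA-binding part of the interferon-activated STAT complex, averaged 7.96 ± 0.78 in primary lines and 8.79 ± 0.56 in tissues (limma adjusted p = 0.067).

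Of 7 tested genes that sense nucleic acid or relay its signal, 1 was lower and 0 higher, with a median difference of -0.21, and such a count is near the share of all genes called (9.06% lower, 14.6% either way). This was STING1, the adaptor that relays cytosolic DNA sensing, at 1.91, 2.32 and 7.25 at the lowest, median and highest primary line, and 5.33 to 8.14 in tissues. The groups overlapped only through line 4 at 7.25, and the next primary line had 2.69. The difference was -3.73 (SE 0.44, limma adjusted p = 7.5e-08), and -2.11 with values under log2 4 set to 4 (limma adjusted p = 7.5e-06). Lines 12, 6, 7 and 25 thus had STING1 at 2.69 or less.

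Of 23 tested further type I interferon targets 4 were lower and 0 higher, where 9.06% of all genes tested were lower, with a median difference of -0.44. They were EPSTI1 (-3.57, SE 0.71, limma adjusted p = 0.00036), the helicase DDX60 (-2.67, SE 0.79, limma adjusted p = 0.0135), PARP9 (4.30 ± 1.38 in primary lines and 6.30 ± 1.12 in tissues, limma adjusted p = 0.012), which acts with the ubiquitin ligase DTX3L, and HERC6 (-1.67, SE 0.57, limma adjusted p = 0.030), the main ISG15 ligase in mouse. OAS2, a relative of OAS1, averaged 8.88 ± 1.31 in primary lines and 8.97 ± 1.64 in tissues (limma adjusted p = 0.932). EIF2AK2 averaged 4.45 ± 1.15 in primary lines and 4.45 ± 0.35 in tissues (limma adjusted p = 0.996). DDX60 lost its call without tissue 5 (adjusted p = 0.060), with values under log2 4 set to 4 (-1.86, adjusted p = 0.052), in both title prefix fits and in females alone, and HERC6 without tissue 2, 4 or 5 (adjusted p up to 0.091) and in females alone, while its difference was -3.55 in both title prefix fits. PARP9 lost its call in both title prefix fits and in females alone.

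Of 12 tested type II interferon targets 5 were lower and 2 higher, where 9.06% and 5.57% of all genes tested were, with a median difference of -0.71. Lower were all 3 immunoproteasome subunits, PSMB8 (-3.58, SE 0.61, limma adjusted p = 4.6e-05), PSMB9 (-2.37, SE 0.77, limma adjusted p = 0.024) and PSMB10 (-1.20, SE 0.43, limma adjusted p = 0.040), together with the chemokine CXCL10 (-2.93, SE 1.09, limma adjusted p = 0.049) and the GTPase GBP1 (-1.71, SE 0.62, limma adjusted p = 0.044). Higher were the adhesion receptor ICAM1 (2.05, SE 0.37, limma adjusted p = 0.00013) and the tRNA synthetase WARS1 (1.23, SE 0.27, limma adjusted p = 0.0010), which averaged 10.60 ± 0.57 in primary lines and 9.36 ± 0.25 in tissues. Calls were lost without tissue 4 or 5 for PSMB9 (adjusted p up to 0.076), without any 1 of tissues 2 to 6 and of lines 13, 15, 17 and 24 for PSMB10 (up to 0.135), without tissue 1, 4 or 5 and in 20 of 24 fits without 1 primary line for CXCL10 (up to 0.268), and without tissue 2 or 5 and in 15 such fits for GBP1 (up to 0.262). CXCL10 also missed the threshold with dog as a random block (limma adjusted p = 0.0505). Without tissue 5 the differences were -1.68 for CXCL10 and -0.95 for GBP1, and with values under log2 4 set to 4 they were -1.67 and -0.81, both without a call. In both title prefix fits WARS1 differed by 0.44, PSMB10 by -0.31, CXCL10 by -2.62, GBP1 by -1.91 and PSMB9 by -3.39, all without a call. In females alone PSMB9, PSMB10, CXCL10 and GBP1 were not called, and ICAM1 lost its call within title prefix 3 alone (limma adjusted p = 0.060). Of the 12 genes called over these lists, 3 kept their call under every alternative in which they were tested: STING1, which the filter at log2 7 left out, EPSTI1 and PSMB8. STING1 had passed the main filter through the tissues, where it is high, so keeping its call gives it no added support.

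**Figure D5:**
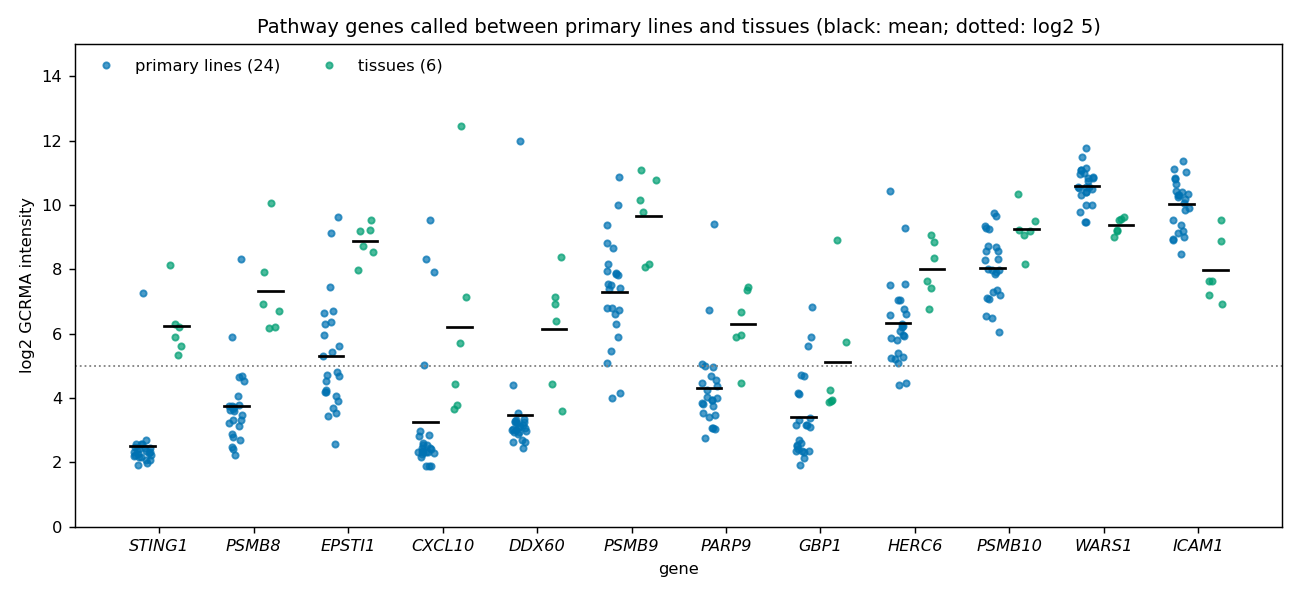
Log2 GCRMA intensity of the 12 pathway genes called in primary lines minus tissues, with primary lines (24) left of tissues (6), each point a sample, black bars the means and the dotted line log2 5. STING1 is over log2 5 in 1 primary line and in all 6 tissues, and ICAM1 and WARS1 are the 2 genes with the higher mean in primary lines.

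The metastatic lines lay within the range of the primary lines for every member. Metastatic line 1, the highest of the 3 for ISG15, MX2, IFI44L and USP18, was also the array with the largest GAPDH 3′ minus 5′ difference, and the part of RNA quality was not tested. For metastatic line 1, 2 and 3, ISG15 was 7.09, 3.59 and 5.44, against a primary line median of 3.79. IFI44L was 8.86, 6.44 and 8.73, against a median of 5.86, and OAS1 was 9.11, 7.90 and 9.47, against 7.75. MX1 was 5.18, 2.96 and 5.20, MX2 4.44, 2.18 and 2.07, IFI44 4.54, 2.82 and 5.18, and USP18 3.15, 2.56 and 2.73. Metastatic line 2 was the lowest for every tested member but MX2, and USP18 was off in all 3. None of the 7 tested members was called in metastatic minus primary lines, where 0.0127% of all genes tested, 1 gene, was called and 533 genes had an unadjusted p under 0.05. The differences ran between -0.81 for USP18 and 1.49 for IFI44L (limma adjusted p = 0.844, 95% interval -0.83 to 3.81). For ISG15 the interval was -2.78 to 3.65, so with 3 metastatic lines a difference of several log2 units in either direction was not excluded.

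Lines 12, 6, 25 and 7, the 4 highest, were all labelled Rottweiler, as were 10 of the 24 primary lines. The other 6 Rottweiler lines had 0 members raised by 2 log2 units or more over the primary line median. In Rottweiler minus Golden Retriever lines, with 10 and 7 lines and sex as a covariate, all 7 tested members differed by between 1.42 and 2.30, and none was called (limma adjusted p = 0.508 to 0.633). Of all genes tested, 0.0255% were called, and 852 had an unadjusted p under 0.05. MX1 had the largest difference, 2.30 with an interval of -0.58 to 5.18. Without line 12 the 7 differences were 0.52 to 1.01. Sex was uneven, with 7 of 10 Rottweiler lines and 3 of 7 Golden Retriever lines from males.

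Survival was tested as a slope per doubling of the survival label in 11 primary lines, those with SOC and no more as treatment label (not spelled out there). None of the 4 highest lines was among them. Slopes of the 7 tested members ran between -0.12 for ISG15 and 0.24 for IFI44L, and none was called (limma adjusted p = 0.925 to 0.996). MX1, MX2, IFI44 and USP18 were off in all 11 lines, so their slopes rest on levels under log2 5 alone and say little about survival. For USP18 this holds for line 19 as an average, 4.155, of arrays at 5.475 and 2.836. Of all genes tested 0% were called, and 384 had an unadjusted p under 0.05.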

How the data were processed

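The members, lists and tests were chosen with earlier results of these data known. The deposited intensity values, 1 per probe set and array on a linear scale, came from GCRMA run by the authors, per the submitters' processing notes; its version and settings are not stated. Arrays have no read depth, so the number of arrays limits the precision. Log2 was taken. Of 43035 probe sets, 175 controls were left out, and the platform annotation gave 29254 a single symbol. Probe sets over log2 5 on at least 3 arrays were kept, the one with the highest mean stood for a gene, and 7849 genes were tested. Both line arrays of dog 22 were averaged. Tests used lmFit and eBayes of limma 3.58.1 (R 4.3.3), with Benjamini-Hochberg adjustment over all genes tested; the 3 sample groups shared 1 fit. Calls needed an adjusted p under 0.05, and for lines against tissues also 2-fold. Platform gene identifiers of ISG15 and IRF7 were not matched in the UU_Cfam_GSD_1.0 table, so the platform's symbol was kept. Genes named were the members, the called genes of the lists with others of them as values, and the 10 genes most like the member mean. Line and tissue of dogs 22 and 23 are paired by their labels; their deviations from the group means correlated at 0.157 and -0.175. On simulated data with 7849 genes, the primary line and tissue test called 25.4%, 79.1% and 93.9% of genes changed by 1, 2 and 3 log2 units. The simulated noise was normal and independent between genes, unlike the skewed and correlated members, so these shares do not carry over to them. A change of 1 log2 unit also lies right at the 2-fold limit of a call. Alternatives covered filter, normalization, probe set, floor, left-out arrays, array weights, dog block, title prefix and sex.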

Additional observations from a re-analysis of the deposited data

Results flagged for a closer look

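Dixon's test for a value far from its group was run on 27 combinations of the 9 members with Rottweiler primary lines, Golden Retriever primary lines and tissues, and 4 were marked, where chance marks about 1 in 20 groups. The members follow each other across lines, so the combinations are not independent and the count cannot be judged against that rate. Line 12 had also been seen beforehand to be the highest line. Among the 10 Rottweiler lines, IRF7 in line 12 lay at 7.928, where the next line had 3.69, and RSAD2 in line 12 lay at 3.103, where the next line had 2.335. Among the 7 Golden Retriever lines, OAS1 in line 21 lay at 9.216, where the next line had 7.966, and IFI44 in line 21 lay at 3.368, where the next line had 2.845. ISG15 in line 21 was 6.12. No explanation was weighed.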

How the results depend on the processing

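In primary lines minus tissues, 4 members were called, and the alternatives gave 2 with values under log2 4 set to 4, 7 with array weights, 1 with title prefix as a covariate and the line arrays of dog 22 kept apart (4 with these arrays kept apart and no covariate), 2 within title prefix 3 alone and 0 in females alone (fewer samples), with 2 to 4 leaving out each tissue and 3 to 5 leaving out each primary line (chosen after seeing the data). All 7 tested members kept their negative sign in each of these. Over all genes the count called lower was 711, or 470 with the filter at log2 7 (fewer genes tested), and the count called higher was 437, or 662 with the probe set of the largest interquartile range. Title prefix as a covariate, again with the arrays of dog 22 kept apart, left 178 higher and 315 lower, within title prefix 3 alone 80 and 171, and in females alone 235 and 472. The dog as a random block (a replicate block, estimated correlation -0.027) called 4 members, MX1 at adjusted p = 0.043, and changed the call of CXCL10 alone among the named genes (adjusted p = 0.0505).

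In metastatic minus primary lines, 0 members were called throughout, and 1 gene in all, NRP1, was higher and 0 lower. That was 0 higher with the filter at log2 7 and with the probe set of the largest interquartile range, 2 with the floor at log2 4, and 3 higher and 1 lower with array weights; leaving out each metastatic line gave 0 to 13 higher and 0 to 11 lower. The MX1 difference of 0.06 turned to -0.0668 with the floor, -0.0018 without primary line 9, and -0.1937 with title prefix as a covariate (arrays of dog 22 apart) or within title prefix 2 alone. Leaving out each metastatic line gave -0.4227 to 1.33 for ISG15, -0.3139 to 0.81 for MX1 (also -0.3047) and -1.10 to 0.0915 for MX2 (also 0.035).

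In Rottweiler minus Golden Retriever lines, 0 members were called throughout, and ZBED1 was higher and MFAP3 lower. Those counts became 0 and 0 without the filter, 0 higher with the filter at log2 7 and with quantile normalization, 2 lower with the probe set of the largest interquartile range, 199 and 72 with array weights, 0 lower within title prefix 2 alone and 2 higher without the sex covariate; leaving out lines 6, 7, 12 or 25 gave 0 to 1 each. For survival, 0 genes were called, against 1 higher without line 9 and 1 higher and 2 lower with array weights, and the OAS1 slope of 0.0067 turned to -0.0002 with quantile normalization, -0.1649 with the probe set of the largest interquartile range and -0.0365 within title prefix 2 alone. The causes of these changes were not tested. With on set at log2 4, MX1 was on in 6 primary lines, and at log2 6 IFI44 in 2 and IFI44L in 11.

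Tissues, with 6 arrays in 1 title prefix, and the 3 metastatic lines set the precision. RSAD2 stayed near background on every array. IRF7 was over log2 5 on 1 array, and below that it was highest in tissue 5 at 4.42 and in lines 7 and 6 at 3.69 and 3.43. The planned search for a promoter motif was not run.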

Other observations

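Line 12 carried a wider set of interferon targets than the members. Of the 35 further type I interferon targets with a probe set, 29 had their highest primary line value in line 12, and so did 5 of 13 type II targets, 5 of 12 sensing genes, 1 of 14 signalling genes, 0 of 5 receptors and 0 of 4 interferons. The line was chosen after its values were seen, and the lists share genes, so these counts are a description. For 8 of the 35 targets line 12 was the only primary line over log2 5. Among them were DDX60 at 11.98, where the next primary line had 4.40, the membrane protein gene RTP4 at 8.34 (next 4.21), the scramblase gene PLSCR1 at 7.39 (next 4.02), DHX58, a regulator of RNA sensing, at 6.93 (next 2.83), the nucleotide kinase gene CMPK2 at 6.01 (next 4.28), the exonuclease gene ISG20 at 5.85 (next 2.97) and IFIT2 at 5.42 (next 2.93). The 8th was TRIM25 at 5.71 (next 4.91), a ligase in RNA sensing.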
